A study of Mus musculus with 6 samples.

Results

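The insulin-like growth factor (IGF) axis was followed in mouse myoblasts through 10 genes taken by symbol: the ligands Igf1 and Igf2, the receptors Igf1r and Igf2r, and the binding proteins Igfbp2, Igfbp3, Igfbp4, Igfbp5, Igfbp6 and Igfbp7. All 10 were represented on the array, by 28 of its 45101 probe sets, and 9 were bright enough to test. Myoblasts are the dividing precursors of skeletal muscle fibres. These were isolated from hindlimbs of C57BL/6JRj males aged 9 to 15 weeks, for which no genetic change is stated. The compared cells spent 72 hours on dishes coated with collagen I (3 samples) or with fibronectin (3 samples), and every sample received 20% serum and 2.5 ng/ml basic fibroblast growth factor. Serum itself supplies IGF proteins and binding proteins, and no sample without a coating was analysed here. The labels name neither cultures nor animals behind the 3 samples of a group, so the p-values cover only how these samples varied, and that variation may be technical.

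Igf1 and Igf2 are small secreted proteins related to insulin. They act through Igf1r, a receptor tyrosine kinase that feeds the phosphoinositide 3-kinase and MAP kinase pathways, while Igf2r, which is also the cation-independent mannose 6-phosphate receptor, removes Igf2 from the cell surface and carries newly made hydrolases to lysosomes. Binding proteins hold IGFs outside the cell, can block or prolong their action, and are cut by proteases. In muscle, IGFs are known to favour both the division of myoblasts and their differentiation, and Igf2 made by the myoblasts themselves is known as a driver of differentiation.

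Igf2, Igf2r, Igfbp4 and Igfbp5 fell by 1.65-fold to 2.74-fold on fibronectin relative to collagen, Igfbp7 rose 1.32-fold, and Igf1r, Igfbp3 and Igfbp6 did not pass the test. Igf1 also tested lower, but it passed the brightness filter only through its collagen samples, so its test is not counted as support. Of the 9 genes tested, 5 fell, Igf1 included, and 1 rose at an adjusted p of 0.05 in limma's test, where 40.1% of all 10942 genes tested passed in either direction, 20.2% of them lower and 19.9% higher. All 5 that fell, Igf1 included, did so at least 1.5-fold, as did 3.67% of all genes tested, and 5.23% changed by that much in either direction. The median log2 change was -0.70 over the 9 genes, which is the value of Igf1 itself, and 0.0040 over all genes tested. Without Igf1, 4 of 8 fell, each at least 1.5-fold, 1 rose and the median was -0.39. With probe sets averaged, 4 of 8 genes fell, 0 rose and the median was -0.20. Signals are log2 values deposited by the authors, so a difference of 1 is a doubling, and the brightness filter, the median over all probe sets, was 2.33. In RNA from whole cultures, fewer cells of a type and less RNA per cell cannot be told apart.

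**Figure D1:**
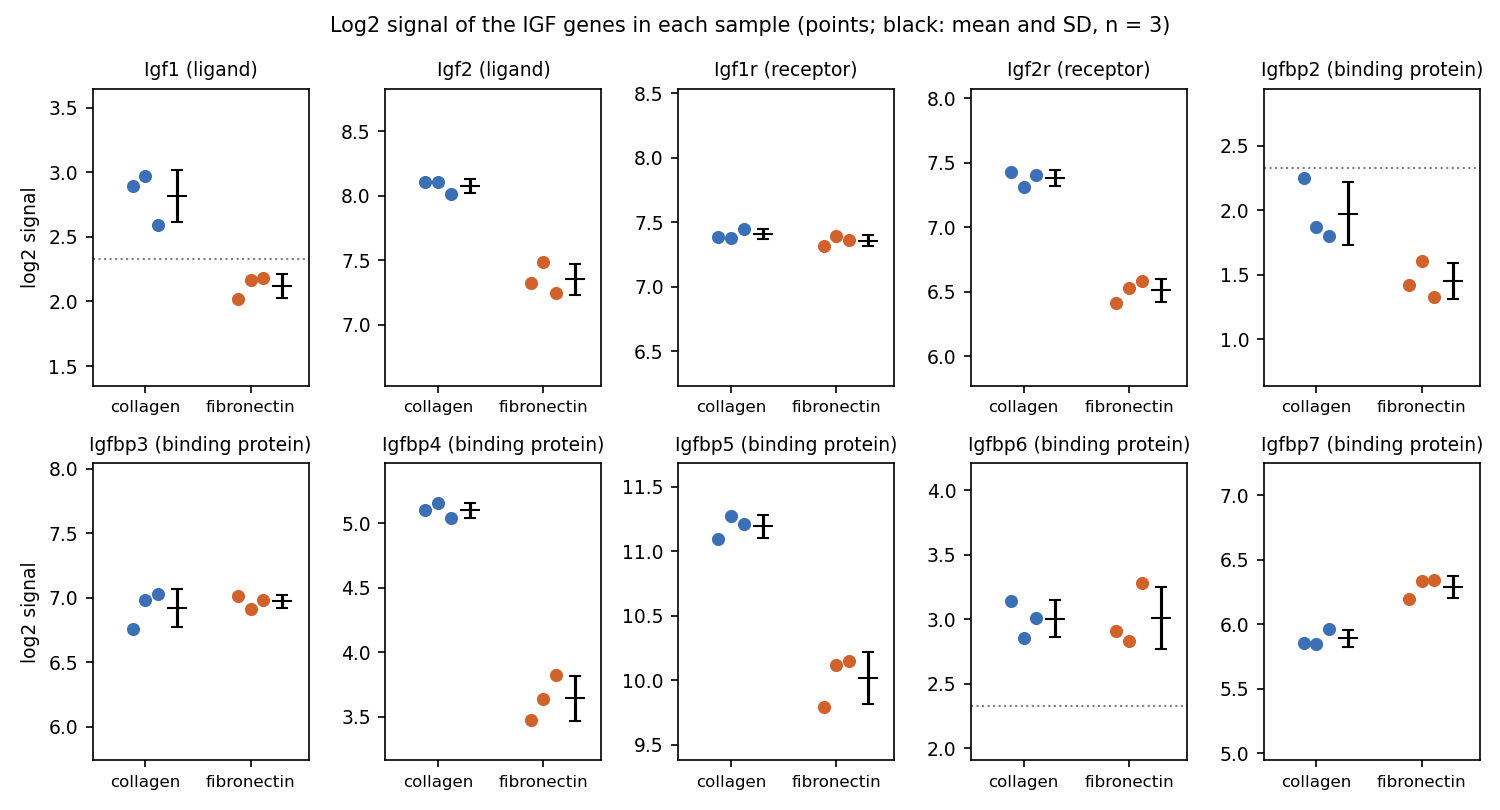
Log2 signal (vertical axis, with the same span in each panel) of the main probe set of each of the 10 genes in 3 collagen (blue) and 3 fibronectin (orange) samples, with mean and SD in black and the brightness filter of 2.33 as a dotted line where it lies in range. Fibronectin samples lie wholly below collagen samples for Igf1, Igf2, Igf2r, Igfbp2, Igfbp4 and Igfbp5, wholly above them for Igfbp7, and overlap them for Igf1r, Igfbp3 and Igfbp6.

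Among the ligands, Igf2 (Entrez gene 16002) had log2 signals of 8.11, 8.10 and 8.01 on collagen and 7.32, 7.49 and 7.24 on fibronectin. Every fibronectin sample lay below every collagen sample. The fall was 1.65-fold, from 8.07 ± 0.05 to 7.35 ± 0.12 (SD, n = 3), with a log2 change of -0.72, a 95% interval of -0.88 to -0.56 and an adjusted p of 0.000196. A second Igf2 probe set gave signals of 1.09 to 1.60, below the filter, with overlapping groups and an untested log2 change of 0.22. Its highest signal, 1.60 in fibronectin replicate 1, recurs in 847 entries of the data. When both probe sets were averaged the log2 change of Igf2 was -0.25, with an adjusted p of 0.0318.

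Igf1 (Entrez gene 16000) was close to the filter. Its signals were 2.89, 2.98 and 2.59 on collagen and 2.02, 2.17 and 2.18 on fibronectin, so that all fibronectin values lay below the filter of 2.33. The groups did not overlap, and the difference was -0.70 on the log2 scale (95% interval -0.93 to -0.47, adjusted p = 0.00127). Because the gene passed the filter only through collagen, this p does not count as support, and the size is set against signals at the dim end of the scale. Of the 4 Igf1 probe sets, 3 passed the filter, each again only through collagen, with differences of -0.70, -0.80 and -0.31. The dimmest had signals of 0.66 to 1.05. The mean of all 4 lay under the filter and had a log2 change of -0.52, with no test.

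The receptors differed in what the test found. Igf2r (Entrez gene 16004) had signals of 7.43, 7.31 and 7.40 on collagen and 6.41, 6.53 and 6.59 on fibronectin, with no overlap. It fell 1.83-fold, from 7.38 ± 0.06 to 6.51 ± 0.09 (log2 change -0.87, 95% interval -1.01 to -0.73, adjusted p = 5.7e-05). The other Igf2r probe set gave a log2 change of -0.73 and passed as well (adjusted p = 0.00022 over all probe sets tested). Igf1r (Entrez gene 16001) had signals of 7.39, 7.38 and 7.45 on collagen and 7.31, 7.39 and 7.36 on fibronectin. These groups overlapped. Its log2 change was -0.05, with a 95% interval of -0.16 to 0.06 and an adjusted p of 0.429, so a fall larger than 1.11-fold lay outside the interval. The intervals of the 2 receptors did not overlap, although the difference between the genes was not tested. The next 2 Igf1r probe sets by brightness had log2 changes of -0.04 and -0.03. Another, with signals of 2.31 to 3.23, had -0.44 (adjusted p = 0.051 over all probe sets). That probe set had the largest variance of the 5, and the gene passed, at an adjusted p of 0.042, when it stood for Igf1r.

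The binding proteins Igfbp4 and Igfbp5 had the largest changes of the axis. Igfbp4, known chiefly as an inhibitor of IGF action, had signals of 5.10, 5.16 and 5.04 on collagen and 3.47, 3.64 and 3.82 on fibronectin. The gap between the groups was far wider than the spread within them. The fall was 2.74-fold, from 5.10 ± 0.06 to 3.64 ± 0.17 (log2 change -1.45, 95% interval -1.65 to -1.26, adjusted p = 2.88e-05), and it ranked 28 among the 10942 genes tested when they were ordered from the largest fall. Igfbp4 (Entrez gene 16010) had 6 probe sets. Of the 4 with a mean above the filter, 3 were above it on both coatings and fell by 1.45, 0.82 and 0.61 on the log2 scale. The other went from 3.68 on collagen to 2.28 on fibronectin, so that it passed the filter only through collagen. The dimmer pair had log2 changes of -0.42 and -0.06. The probe set with -0.06 had the same signal, 2.18, in every collagen sample and in fibronectin replicates 1 and 3. That number recurs in 590 entries of the data, so this log2 change says little about Igfbp4. Averaged over all 6, the fall was 0.79 on the log2 scale, so its size depended on the probe set.

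Igfbp5 (Entrez gene 16011), a binding protein that also attaches to extracellular matrix and is known to be induced as myoblasts differentiate, had signals of 11.10, 11.27 and 11.21 on collagen. On fibronectin they were 9.79, 10.12 and 10.15, lower in every sample, with replicate 1 the lowest of all 6. Igfbp5 fell 2.26-fold (log2 change -1.18, 95% interval -1.40 to -0.95, adjusted p = 0.00012) and ranked 66 from the largest fall. Its other probe set fell by 0.94 on the log2 scale, from 5.54 ± 0.20 to 4.60 ± 0.03.

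Igfbp7 rose. This secreted protein of vessel walls and stroma shares the family's first domain but binds IGFs weakly. Its signals were 5.86, 5.85 and 5.96 on collagen and 6.19, 6.33 and 6.34 on fibronectin, without overlap, a rise of 1.32-fold (log2 change 0.40, 95% interval 0.26 to 0.54, adjusted p = 0.00143). The rise rests on 1 of 3 probe sets of Igfbp7 (Entrez gene 29817). Another, with signals of 2.61 to 3.18, had a log2 change of -0.14 and did not pass, the dimmest had -0.02, and the mean of all 3 did not pass either (log2 change 0.08, adjusted p = 0.314).

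Igfbp3, the main carrier of IGFs in blood, and Igfbp6, which prefers Igf2, did not pass. Igfbp3 (Entrez gene 16009) had signals of 6.75, 6.98 and 7.03 on collagen and 7.02, 6.91 and 6.99 on fibronectin. Replicate 1 on collagen was the low value, and the other samples overlapped. The log2 change of Igfbp3 was 0.05 (95% interval -0.13 to 0.22, adjusted p = 0.639), and its second probe set had -0.07. Igfbp6 (Entrez gene 16012) had signals of 3.14, 2.86 and 3.01 on collagen and 2.91, 2.83 and 3.28 on fibronectin, again overlapping. Its log2 change of 0.0038 had the widest interval among the tested genes of the axis, -0.28 to 0.29 (adjusted p = 0.983). For both genes the sign changed under some settings.

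Igfbp2, a binding protein that carries an integrin-binding sequence, lay below the filter in every sample and was not tested. Its signals were 2.25, 1.87 and 1.80 on collagen and 1.42, 1.60 and 1.33 on fibronectin, which did not overlap. The difference of the means was -0.52 on the log2 scale. With no filter on brightness Igfbp2 passed, at an adjusted p of 0.0341. Of its 6 signals, 2 were values that recur in the table, 1.60 in 847 of its entries and 1.33 in 389. The Igf1 signal of 2.18 in fibronectin replicate 3 was another such value, found in 590 entries. Over all probe sets of the axis, 12 of 168 signals were values that recur at least 100 times.

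**Figure D2:**
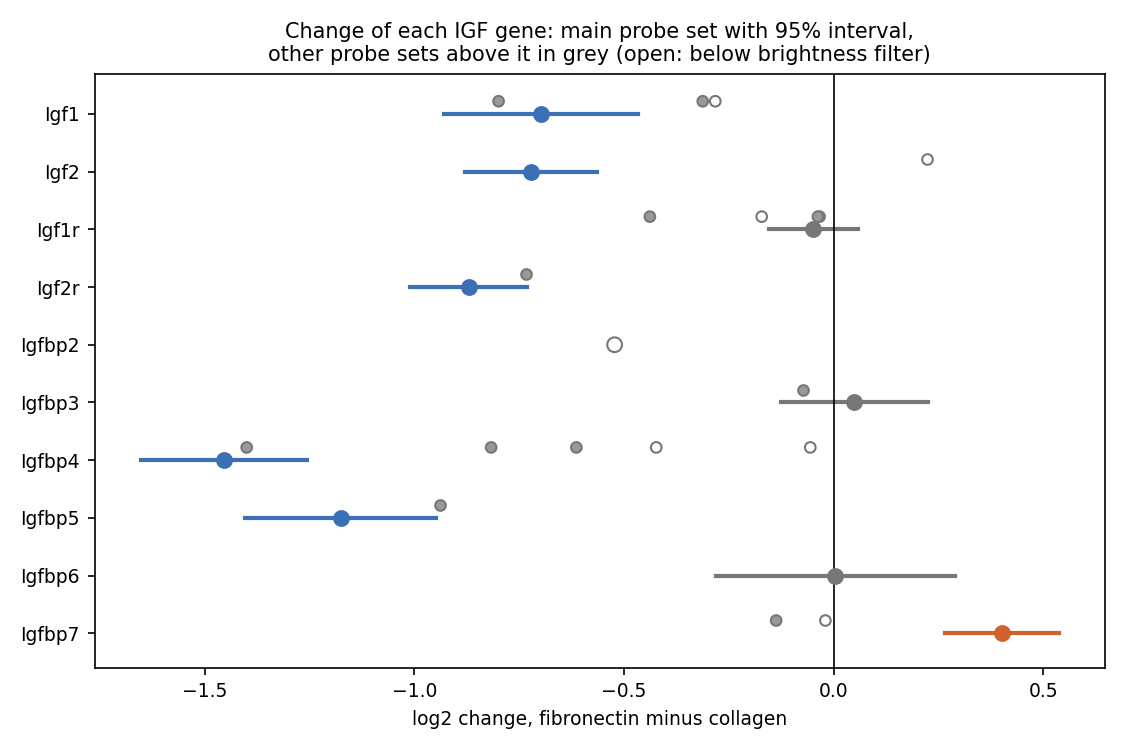
Log2 change from collagen to fibronectin (horizontal axis) of each gene's main probe set with its 95% interval, blue for a fall, orange for a rise and grey where the test was not passed or not made, and of its other probe sets as small grey points (open below the filter). The probe sets of Igf2r and Igfbp5 lie close together, those of Igfbp4 run from -1.45 to -0.06, and of the 3 for Igfbp7 only the main one lies to the right of 0.

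Counted by probe set, 21 of the 28 were above the filter, and 12 fell, 1 rose and 8 did not pass, where 32.0% of all 22496 probe sets tested passed, 15.8% lower and 16.2% higher. The 12 that fell were 3 of Igf1, 1 of Igf2, both of Igf2r, 4 of Igfbp4 and both of Igfbp5. Of these, the 3 of Igf1 and 1 of Igfbp4 passed the filter only through collagen, which leaves 8 of 17 lower. None of the 4 tested Igf1r probe sets and neither of the 2 for Igfbp3 passed at this threshold. Among the 9 genes tested, 6 had groups that did not overlap, 5 of them lower on fibronectin, Igf1 included, and 1 higher. Over all genes tested the groups did not overlap for 53.3%, 25.9% lower and 27.4% higher.

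The promoters of the 3 genes with the smallest adjusted p are shown because these genes fell together. They are the 250 bases before the transcription start, from RefSeq on assembly GRCm38.p6, where 14 starts were listed for the 10 genes. Capitals mark CANNTG (an E-box, the type of site bound by Myod1 and Myog), TATAAA and CCAAT on either strand.
Igfbp4 (chr11:99040994-99041243, + strand): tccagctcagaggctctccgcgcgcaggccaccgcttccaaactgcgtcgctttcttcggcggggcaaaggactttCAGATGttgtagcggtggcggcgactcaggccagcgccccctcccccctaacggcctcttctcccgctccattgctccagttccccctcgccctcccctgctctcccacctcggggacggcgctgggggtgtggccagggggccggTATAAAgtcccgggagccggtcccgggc
Igf2r (chr17:12769707-12769956, - strand): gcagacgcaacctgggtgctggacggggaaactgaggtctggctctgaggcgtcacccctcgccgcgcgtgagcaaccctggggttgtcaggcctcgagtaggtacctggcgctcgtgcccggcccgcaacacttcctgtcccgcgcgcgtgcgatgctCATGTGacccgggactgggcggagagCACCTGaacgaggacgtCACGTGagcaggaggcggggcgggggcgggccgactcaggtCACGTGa
Igfbp5 (chr1:72874866-72875115, - strand): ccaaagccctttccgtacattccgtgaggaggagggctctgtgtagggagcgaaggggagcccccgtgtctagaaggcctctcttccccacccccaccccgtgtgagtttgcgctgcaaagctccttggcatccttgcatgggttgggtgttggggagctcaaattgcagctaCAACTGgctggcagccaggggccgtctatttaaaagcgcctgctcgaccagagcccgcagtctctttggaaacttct
The Igfbp4 promoter held a TATAAA that begins 28 bases before the start, a motif found in 12.4% of all 32841 listed promoters of this length. The Igf2r promoter held 4 CANNTG, of which 2 were CACGTG, at 48 and 7 bases before the start. CACGTG, the form of E-box bound by Myc and by the lysosomal regulators of the Mitf and Tfe family, was found in 6.02% of all promoters. It was also in the Igfbp2 promoter. The Igfbp5 promoter held 1 CANNTG. This motif occurred in 9 of the 14 promoters of the axis and in 66.2% of all promoters, and CAGCTG, a form of it, in 1 of 14 (Igf1) and 13% of all. GTAAACA, a core of Foxo sites, was in none of the 14 and in 3.17% of all. The GGGCGG box was in 6 of 14, against 32.7% of all. CACGTG and CAGCTG are included in the counts of CANNTG. Such matches describe the sequence and do not show binding.

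Neighbours on the chromosome were looked at next. Igfbp2 and Igfbp5 are neighbours, and both were lower on fibronectin, Igfbp2 untested. Rpl37a, on the other side of Igfbp2, did not pass, with a log2 change of -0.03. Tns1, on the other side of Igfbp5 with 1 gene between, was a gene whose log2 change of -0.71 passed (adjusted p = 0.000228), or -0.47 with its probe sets averaged. Next to Igfbp4 lies Top2a, a topoisomerase of dividing cells, which rose by 0.47, or 0.22 with its probe sets averaged, while Igfbp4 fell. The tested neighbours of Igf2 and Igf2r did not pass, with log2 changes between -0.15 and -0.01. Neighbours that passed also lay beside Igf1 (Nt5dc3 -0.14, Parpbp 0.38), Igf1r (Ttc23 0.43), Igfbp3 (Tns3 -0.16) and Igfbp6 (Spryd3 -0.26, Csad -0.46). Of all genes tested, 40.1% passed in either direction. Order along the chromosome was taken from the same assembly and from protein-coding genes only, so noncoding neighbours were not covered. Apart from Igfbp2, the neighbours named passed the filter.

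Of 54 listed genes of insulin and IGF receptor signalling, the insulin receptor Insr among them, 47 were tested. Of these 9 rose, 9 fell and 29 did not pass, with a median log2 change of -0.02. These shares are close to the 19.9% higher and 20.2% lower of all genes tested. With samples centred on their medians the split was 11 higher and 4 lower. Irs1, the adaptor that docks on the activated receptor, had signals of 8.99, 9.10 and 9.18 on collagen and 9.70, 9.68 and 9.68 on fibronectin. It rose 1.52-fold, with no overlap (log2 change 0.60, 95% interval 0.47 to 0.73, adjusted p = 0.000178). Socs3, an inhibitor of cytokine and insulin signalling, rose by 0.60 and Eif4ebp2, a brake on translation controlled by mTOR, by 0.46. Foxo1, a transcription factor that Akt keeps out of the nucleus, had signals of 6.61, 6.52 and 6.60 on collagen and 5.94, 6.13 and 6.21 on fibronectin. These did not overlap, and Foxo1 fell 1.40-fold (log2 change -0.49, adjusted p = 0.00159). Pik3r1, the regulatory subunit of phosphoinositide 3-kinase, fell by 0.48 and Rptor, a subunit of mTOR complex 1, by 0.26. The changes of Socs3, Eif4ebp2, Foxo1, Pik3r1 and Rptor shrank to 0.37, 0.19, -0.27, -0.27 and -0.16 with their probe sets averaged, and each still passed. The insulin receptor Insr had a log2 change of -0.01 and did not pass.

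Among 21 genes that set how much IGF is free or that bind Igf2 messenger RNA, 13 were tested. Of these 4 rose, 2 fell and 7 did not pass, with a median log2 change of 0.02. Of all genes tested, 19.9% were higher and 20.2% lower. Ctsd, a lysosomal protease sorted by mannose 6-phosphate receptors, fell 1.66-fold, from 9.28 ± 0.07 to 8.54 ± 0.08 (adjusted p = 0.000111). Htra3, a secreted serine protease, fell 1.54-fold, or by 0.30 on the log2 scale with its probe sets averaged. Adam12, a metalloprotease that cuts binding proteins, rose 1.44-fold, Plat, the tissue plasminogen activator, rose 1.32-fold, and Stc1 rose 1.25-fold. With its probe sets averaged Plat had a log2 change of 0.14. Stc1 lost its call without collagen replicate 2 and without fibronectin replicate 3, each time at 0.25 on the log2 scale, and also without a filter. Igfbp1, Pappa (a protease of Igfbp4) and Pappa2 lay below the filter, with means of at most 1.40 on either coating, and the Igf2 messenger-binding gene Igf2bp3 did not pass (log2 change 0.02).

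Igf2 and Igf2r are imprinted genes, expressed from 1 parental copy in many mouse tissues. Of 10 other tested genes from a list of imprinted growth genes 4 fell, 2 rose and 4 did not pass, with a median log2 change of -0.10. Nnat fell 2.23-fold, Dlk1, a membrane protein of the Notch family of ligands, fell 1.72-fold, and the noncoding RNA Meg3 from the same cluster as Dlk1 fell 1.53-fold. Averaged over probe sets, the log2 changes of Dlk1 and Meg3 were -0.51 and -0.28. Mest rose 1.87-fold, from 8.17 ± 0.09 to 9.08 ± 0.09 (adjusted p = 7.74e-05), and Sgce rose 1.16-fold, a call that averaging its probe sets ended (log2 change 0.11). The count of 2 higher in 10 is close to the 19.9% of all genes tested, of which 20.2% were lower.

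**Figure D3:**
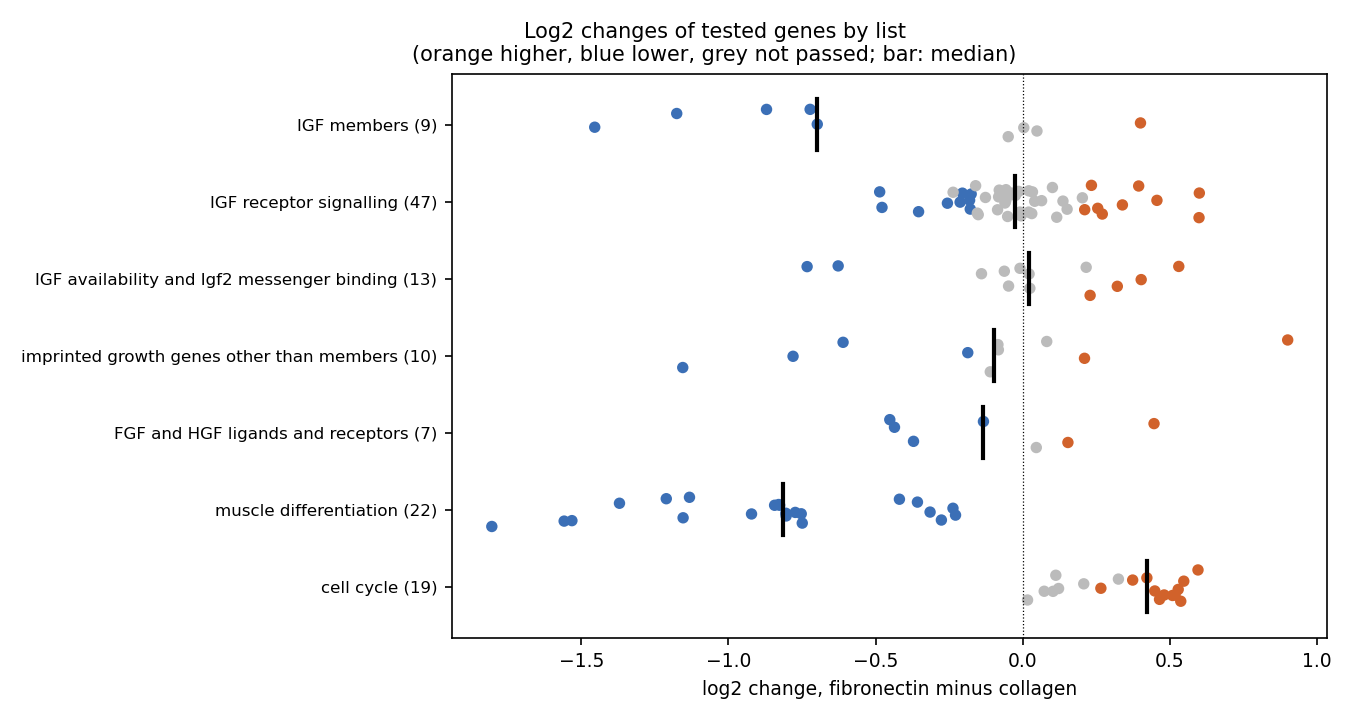
Log2 change from collagen to fibronectin (horizontal axis) of every tested gene of the IGF axis and of the other lists (rows, number tested in brackets), orange for genes that rose, blue for genes that fell and grey for those that did not pass, with the median of each list as a bar. The median of the IGF genes is -0.70, which is the value of Igf1, and -0.39 without Igf1, which passed the filter only through collagen. The median of the signalling genes is -0.02, that of the muscle differentiation genes -0.82 and that of the cell cycle genes 0.42.

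Another growth factor system was set beside the axis. Of 17 ligands and receptors for FGF and HGF 7 were tested: 4 fell, 2 rose and 1 did not pass, around a median of -0.13 on the log2 scale. The shares over all genes tested were 20.2% lower and 19.9% higher. Fgfr1, the receptor for the basic fibroblast growth factor in the medium, fell 1.37-fold, the ligands Hgf and Fgf1 fell 1.35-fold and 1.29-fold, and Fgfr4 and Met rose 1.36-fold and 1.11-fold. Met lost its call without a filter, with the replicate number as a block and without each sample in turn except collagen replicate 1. Hgf lost it when its most variable probe set stood for it. The difference between the 2 lists was not tested.

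Listed genes of muscle differentiation and of the cell cycle also differed between the coatings. All 22 tested genes of a differentiation list fell, with a median of -0.82, where 20.2% of all genes tested fell. With 1 sample left out, 19 to 21 genes of this list were called. The mean signal over the 25 genes of the list was 5.48 to 5.55 on collagen and 4.60 to 4.84 on fibronectin. Musk, Tnni1 and Mef2c fell 2.32-fold, 2.95-fold and 1.89-fold. Of 19 tested cell cycle genes 12 rose, 0 fell and 7 did not pass, with a median of 0.42, where 19.9% of all genes tested rose. Among those that rose were Aurka, Ccnb2 and Cenpa, by 1.51-fold, 1.43-fold and 1.42-fold. With 1 sample left out, 12 to 15 cell cycle genes were called. Under other settings the log2 changes of Mef2c, Aurka and Cenpa shrank to as little as -0.66, 0.40 and 0.35. Differentiation and proliferation themselves were not measured here, and their part in the changes of Igf2, Igf2r, Igfbp4 and Igfbp5 was not tested.

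By mean-centred signal over the 6 samples, the tested genes outside the axis most like Igfbp4 were Cnr1, the cannabinoid receptor, Pla2g2e, a secreted phospholipase, and Nt5e, an ectonucleotidase, with root mean square differences of 0.058, 0.082 and 0.083 log2 units. Their own log2 changes were -1.47, -1.51 and -1.45, and averaging probe sets took Cnr1 to -0.92 and Nt5e to -0.65. Nearest to Igf2r were Lor, Bgn, a matrix proteoglycan, and the creatine transporter Slc6a8, at 0.020, 0.034 and 0.040. Averaging took the log2 change of Lor from -0.88 to -0.47. Nearest to Igfbp7 were the hedgehog receptor Ptch1, Dcakd and the lipoprotein receptor Scarb1, at 0.025, 0.027 and 0.028. Averaging ended the call of Ptch1, at 0.12. These are descriptions over 6 samples that fall into 2 groups, and many genes share such a step.

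By their muscle lineage factors the samples matched their label as myoblasts, though Rgs5 and Col3a1, listed for other cells, were bright as well. Myod1, Myf5 and Pax7, transcription factors of the muscle lineage, had means of 10.10, 8.41 and 8.89 on collagen and of 10.04, 8.49 and 8.77 on fibronectin, and none of the 3 passed. Of 9 myoblast markers 2 rose and 2 fell, where 19.9% and 20.2% of all genes tested did so. Their summed log2 signals were 75.2 to 75.9 on collagen and 75.2 to 75.8 on fibronectin. IGFs and their binding proteins are also made by stromal and immune cells, so markers of those cells were examined. All 8 endothelial and all 4 adipocyte markers lay below the filter, with sums of 8.74 to 10.1 and 3.51 to 4.36 on collagen and of 7.55 to 8.76 and 3.20 to 3.83 on fibronectin. Of 11 fibroblast markers 8 lay below it, among them Pdgfra, Dcn, Lum and Col1a1, and the sums were 22.3 to 23.5 and 23.7 to 24.4. Col3a1 was bright and rose, from 9.33 to 9.54. Thy1 fell, from 2.71 to 2.38, and Cd34 went from 2.20 to 2.79, passing the filter only through fibronectin. Of 8 immune markers 5 lay below it, among them Ptprc and Adgre1, with sums of 17.0 to 18.4 and 15.3 to 16.0. Cd68, a lysosomal membrane protein, fell 2.42-fold and Cd14 fell 1.37-fold, but Csf1r did not pass, with a log2 change of -0.03. Of 7 pericyte markers 4 lay below it, with sums of 22.3 to 23.4 and 21.1 to 21.7. Rgs5 was bright and fell 2.36-fold, from 9.07 to 7.84. Cspg4 and Notch3, the other pericyte markers tested, did not pass, with log2 changes of -0.35 and 0.12. For Schwann cells 2 of 3 lay below it, with sums of 6.25 to 6.80 and 6.53 to 6.77. The part of such cells in the changes of the IGF genes was not tested.

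Sample medians were 2.35 to 2.39 on collagen and 2.30 to 2.34 on fibronectin, so the groups did not overlap. Centring samples on their medians gave 2971 genes higher and 1646 lower, in place of 2173 and 2211. The first principal component of the tested genes held 78.8% of the variance, and SEs of log2 changes had a median of 0.057. The number of arrays limits the precision. No single gene can reach an exact permutation p below 0.1 with 3 samples against 3.

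**Figure D4:**
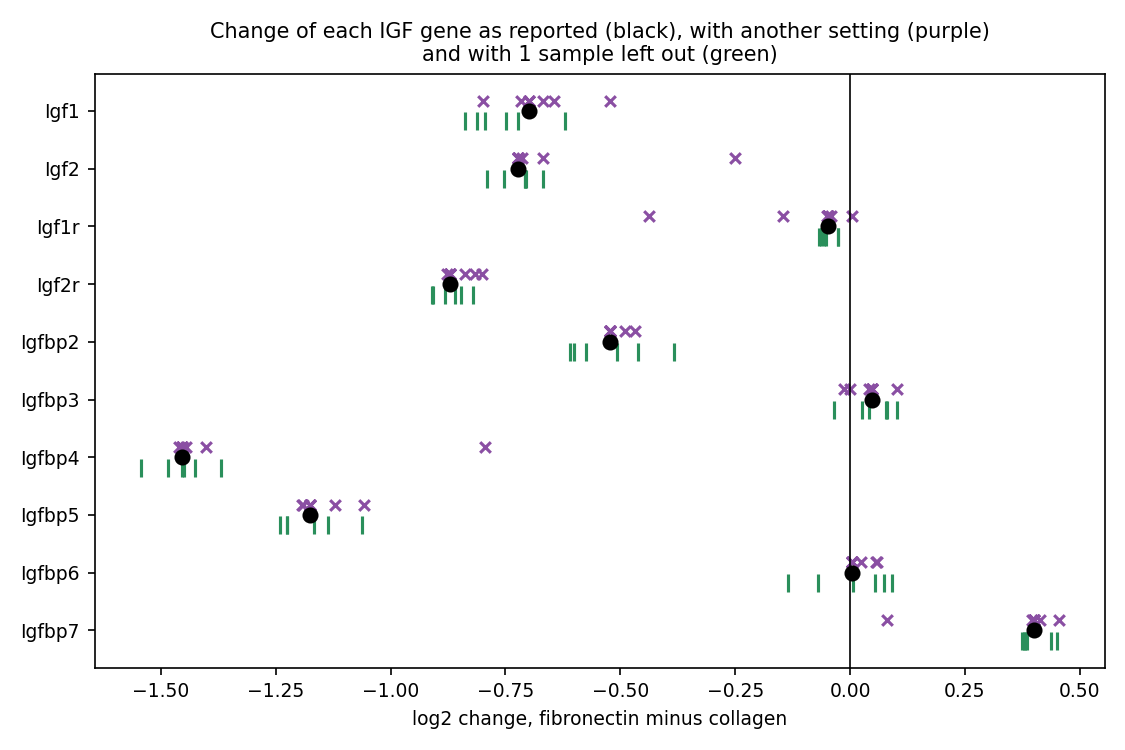
Log2 change from collagen to fibronectin (horizontal axis) of each gene as reported (black point), under each of the other settings (purple crosses) and with each of the 6 samples left out (green bars). Igf2r and Igfbp5 stay between -1.24 and -0.80 throughout, whereas averaging probe sets moves Igf2 to -0.25, Igfbp4 to -0.79 and Igfbp7 to 0.08.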

How the data were processed

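RNA from 6 myoblast samples was measured on an Affymetrix mouse expression array. The log2 signals are those the authors deposited. The submitters' processing notes name Affymetrix Expression Console and RMA. RMA is a method that subtracts background, equalises arrays by quantiles and summarises probes. The labels also name an Illumina labelling kit, the lowest value is below 0, and 5.05% of values are 1 of 38 numbers that recur at least 100 times. These are unusual for RMA, its settings are not known here, and folds of dim probe sets are least certain. Tool versions and scan times are not known here, and no batch was tested. Normalization across arrays removes changes shared by most genes, and dim probe sets give compressed changes.

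Groups came from the sample titles. Platform annotation gave 34958 probe sets 1 gene, 932 had several and the rest are unnamed here. Of 18195 gene identifiers, 18033 had an entry in RefSeq (GRCm38.p6), which gave current symbols. The brightest probe set stood for its gene. Genes with a mean of at least 2.33 were tested with limma 3.58.1 in R 4.3.3 (lmFit and eBayes, two-sided, fibronectin minus collagen, Benjamini-Hochberg over 10942 genes), with 95% intervals. A second fit used all probe sets. The procedure was tested on simulated data.

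The 10 genes, the lists and the tests were chosen with earlier results of these data known. Named from each list were up to 3 genes per direction by smallest p, and the 3 most similar genes for up to 2 falling and 2 rising members. Motifs and neighbours, Insr, Igf2bp3, Igfbp1, Pappa and Pappa2 were chosen after their values were seen. So were the markers Cd14, Cd68, Csf1r, Rgs5, Cspg4, Notch3, Cd34, Col3a1 and Thy1. Plots used matplotlib 3.10.9 under Python 3.11.15. Alternatives were other filters, scalings, probe set rules and variance models, the replicate number as a block, and each sample left out.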

Additional observations from a re-analysis of the deposited data

How the results depend on the processing

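Igf2, Igf2r, Igfbp4 and Igfbp5 kept their direction and their call in every setting in which they were tested. Averaging probe sets took Igf1 below the filter (log2 change -0.52) and ended the call of Igfbp7 (0.081). The most variable probe set brought Igf1r past the threshold at -0.44, and Igfbp2 passed without a filter, at -0.52. Signs that turned belonged to genes that did not pass: Igf1r was 0.0047 with samples centred, Igfbp3 -0.013 with probe sets averaged and -0.00050 with array weights, and Insr 0.040 with samples centred and 0.0057 with array weights. Leaving out 1 sample gave Igfbp3 -0.035 to 0.10, Igfbp6 -0.13 to 0.092 and Insr -0.038 to 0.012. Over those 6 fits 6 members were called each time. With a filter at the 75th percentile fewer genes were tested, and the calls were 5 for the probe sets of the members, 3 for IGF availability, 3 for FGF and HGF and 12 for muscle differentiation. Without a filter 11 genes of IGF receptor signalling were called. Over all genes 3316 to 4823 passed, and centring samples gave 2971 higher and 1646 lower in place of 2173 and 2211. With the replicate number as a block 4173 genes passed, and no call of a member changed (Igf2r adjusted p = 0.000381). Deviations of same-numbered samples correlated at 0.10, -0.0093 and 0.078, and collagen samples 1 and 3 matched the fibronectin sample of their own number best while sample 2 matched 3. Not every correlation was over 0.1, so the samples were treated as unpaired in the main test. With 3 samples per group this check cannot exclude pairing.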
